A study of Mus musculus with 3 samples.

Results

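The transcription factor NRF2, its inhibitor KEAP1 and antioxidant genes that NRF2 is known to control were measured by RNA-seq in wild type (WT) mouse embryo fibroblasts (MEFs). The 10 genes described were chosen by name, as Nfe2l2 (the NRF2 gene), Keap1, Hmox1, Nqo1, Gclc, Gclm, Txnrd1, Srxn1, Prdx1 and Sod2, and all 10 were among the 21782 genes of the count table. MEFs are the fibroblasts that grow out when an embryo is dissociated and plated, and these came from embryos at day 12.5 and were grown in medium with 20% serum under 5% CO2. The oxygen level and the passage number are not given in the sources used here. PolyA-selected RNA of asynchronously growing cells was sequenced from 3 clones of 1 genotype, so that there was 1 condition, no treatment and no comparison between conditions. Each mean is over the 3 clones and has their SD beside it.

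NRF2 is a basic leucine zipper factor that is made continuously and, in unstressed cells, is bound by KEAP1, an adaptor of the CUL3 ubiquitin ligase, and degraded. Oxidants and electrophiles modify cysteines of KEAP1, after which NRF2 accumulates, pairs with a small MAF protein and binds the antioxidant response element, whose core letters are TGACNNNGC. Because this control acts on the NRF2 protein, the level of Nfe2l2 RNA does not report how active NRF2 is. In fibroblasts the targets make glutathione, reduce thioredoxin and peroxiredoxins, detoxify quinones and break down heme.

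The core letters were searched on both strands of the RefSeq promoter windows (GRCm38.p6, from 250 bases before to 50 bases after an annotated start site). Of the members, 8 had a window (all but Hmox1 and Gclc), and 5 of these 8 held the core, while the windows of Keap1, Nqo1 and Sod2 did not. Bases outside the windows were not searched, so a gene without a match here may hold the core elsewhere. Counted by window, 5 of the 10 member windows held it, beside 12.4% of all 32851 windows of the same length. The 5 stretches are shown because they are the places in these windows where the core letters occur, and the capitals mark them. They read 5′ to 3′ along the sense strand of the gene. In all but Nfe2l2 the core lies on the other strand, so that its letters appear as the reverse complement. Such a match is a description of letters and not of binding.
Nfe2l2 (chr2:75704875-75704913, minus strand, core from -240 to -232): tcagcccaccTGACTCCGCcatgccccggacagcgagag
Gclm (chr3:122245403-122245451, plus strand, core from -134 to -126): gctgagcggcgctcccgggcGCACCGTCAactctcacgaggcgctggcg
Txnrd1 (chr10:82859094-82859142, plus strand, core from -92 to -84): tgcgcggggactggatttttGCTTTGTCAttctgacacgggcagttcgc
Srxn1 (chr2:152105532-152105573, plus strand, core from 29 to 37): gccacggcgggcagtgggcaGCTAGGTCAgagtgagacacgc
Prdx1 (chr4:116685446-116685494, plus strand, core from -133 to -125): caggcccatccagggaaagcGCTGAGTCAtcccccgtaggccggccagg

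Txnrd1 has 3 annotated windows, and 1 of them held the core. In Prdx1 the core contains TGAGTCA, which is TGACTCA read from the other strand, the site of the AP-1 factors. TGACTCA on either strand occurred in 5.20% of all windows and, among the members, in those of Prdx1 and Srxn1. Srxn1 held it at -102 and at -45, in capitals in the next stretch, which is shown because neither copy is part of a match to the core. At -45 the letters gc follow TGAGTCA, so that this copy matches the core but for a G in place of the C after TGA. The search allowed only C there.
Srxn1 (chr2:152105412-152105495, plus strand): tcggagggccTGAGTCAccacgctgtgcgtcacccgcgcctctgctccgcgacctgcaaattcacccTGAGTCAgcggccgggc

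The libraries held 22594316 to 25261357 counts on genes, and 1 count was worth 0.0396 to 0.0443 CPM (counts per 1000000 counts, after TMM scaling of the totals). Of 10 fibroblast genes all were detected, led by Col1a1 at 27713 CPM. The lowest of them were Pdgfra, Dcn, Fap and Lum, at 18.6, 7.73, 6.41 and 2.03 CPM. The 4 epithelial and 3 liver genes had between 0 and 5 counts in every clone. Among erythroid genes, Hba-a1 and Alas2 had at most 1 count in any clone and Epor had 19, 22 and 16 counts. The 4 endothelial genes summed to 7.33, 10.7 and 13.1 CPM, of which Kdr made up 6.56, 9.49 and 12.4 CPM and differed between libraries by the chi-square test described with the members. The 11 macrophage genes that could be matched were all detected and were all highest in clone 2, with summed levels of 398, 1871 and 329.7 CPM in the order of the clones. The 6 proliferation genes summed to 368, 723 and 609 CPM and the 3 arrest genes (Cdkn1a, Cdkn2a and Cdkn2b) to 587, 411 and 464 CPM in clones 1, 2 and 3. Clone 2 therefore stood apart by macrophage transcripts and clone 1 by low proliferation and high arrest transcripts. In such bulk RNA, a change in the number of cells of a type and a change in RNA per cell cannot be told apart.

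All 10 members were transcribed in every clone. Together they took 0.103%, 0.111% and 0.104% of the counts of clones 1, 2 and 3. By CPM, 9 of the 10 lay above the median of the 12218 genes that reached 10 counts in all clones (22.4 CPM), and Prdx1, Txnrd1 and Hmox1 were in the top 10%. The exception was Gclm, at 20.9 CPM, with 48.2% of these genes below it.

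Levels of different genes were compared per kb of the transcript that has the longest coding sequence. On this scale the order of the levels was Prdx1, Hmox1, Txnrd1, Nfe2l2, Nqo1, Srxn1, Gclc, Keap1, Sod2 and Gclm, from 171 ± 13.4 CPM per kb for Prdx1 to 3.73 ± 0.581 CPM per kb for Gclm (SD, n = 3). Txnrd1 followed Hmox1 (97.8 ± 24.2 CPM per kb) at 70.4 ± 0.943 CPM per kb, and the ranges of these 3 leading genes over the clones did not overlap. Nfe2l2 came next at 26.3 ± 2.33 CPM per kb. The neighbours Nqo1 (16.9 ± 8.34 CPM per kb) and Srxn1 (16.5 ± 1.54 CPM per kb) were not separated, since Nqo1 was above Srxn1 in 1 clone of 3, and neither were Gclc (10.3 ± 0.196 CPM per kb) and Keap1 (10.2 ± 0.529 CPM per kb). Nfe2l2 was above Nqo1 in every clone although their ranges overlapped. Sod2 was above Gclm in every clone per kb of this transcript, and per kb of all merged exons these lowest 2 ranks were exchanged.

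**Figure D1:**
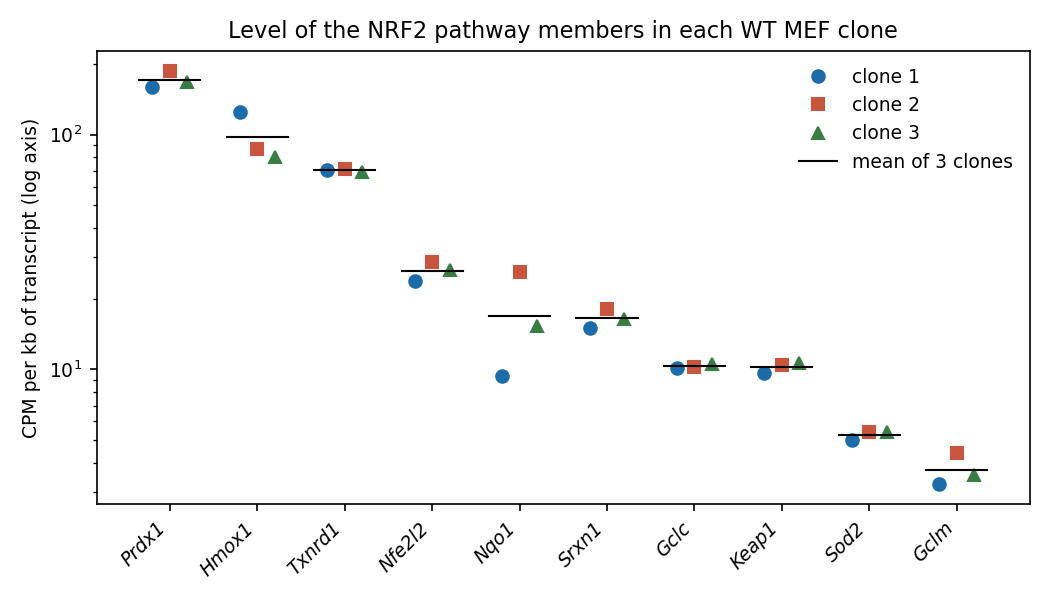
Level of each member in CPM per kb of transcript (log axis) in clones 1, 2 and 3 (points) with the mean of the 3 clones (line), ordered by the mean. Prdx1 leads at 171 CPM per kb and Gclm is lowest at 3.73, and Nqo1 is the member whose points lie farthest apart.

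For each gene, a Pearson chi-square test set its 3 counts against the shares of the scaled totals, and p-values were adjusted by the Benjamini-Hochberg method over all 12218 genes. The test asks whether libraries differ beyond counting noise, it compares libraries and not conditions, and at these depths it passes small differences. By this test 6 of the 10 members differed (60.0%), against 62.5% of all genes tested, and 2 of the 10 (Hmox1 and Nqo1) also differed by at least 1.5 times between the highest and the lowest clone, against 18.6% of all genes tested. Without clone 1 or without clone 3, Nqo1 alone of these 2 stayed at 1.5 times or more, since the Hmox1 ratio was then 1.08 or 1.44. The median ratio of the highest to the lowest clone was 1.17 for the members and 1.24 for all genes tested. Both shares were near those of all genes, so the members were not set apart by the number that differed. Of the 6 that differed, 5 (Nfe2l2, Nqo1, Gclm, Srxn1 and Prdx1) were highest in clone 2 and lowest in clone 1, and Hmox1 was highest in clone 1 and lowest in clone 3. Among the 7642 genes of the table that differed, 37.5% were highest in clone 2 and 43.3% were lowest in clone 1. These shares are separate, and the share of genes that were both was not computed. Without clone 1, and likewise without clone 2, 4 of the 10 members differed, beside 31.7% and 45.3% of all genes tested.

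**Figure D2:**
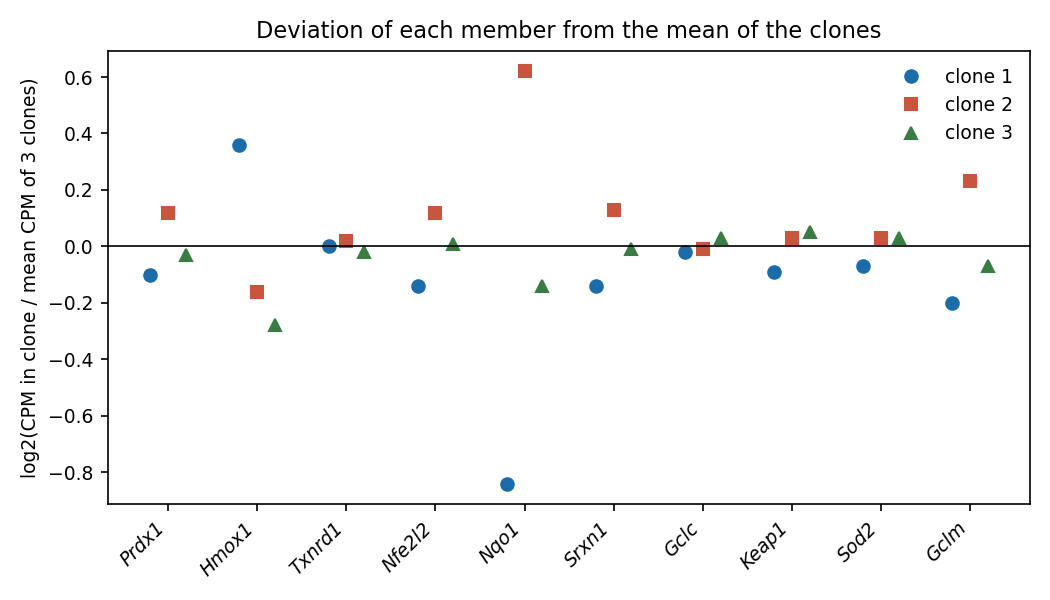
Deviation of each member in each clone from the mean of the 3 clones, as log2 of the CPM ratio. Nqo1 runs from -0.84 in clone 1 to 0.62 in clone 2, Hmox1 is the only member clearly above its mean in clone 1 (0.36), and Txnrd1 and Gclc stay within 0.03 of theirs.

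The regulators come first. Nfe2l2, on the minus strand of chromosome 2 (75675513 to 75704641 in GRCm38), had 1470, 1594 and 1656 counts in clones 1, 2 and 3, or 59.2, 70.7 and 65.6 CPM. Clone 2 was highest and clone 1 lowest, by a ratio of 1.19 (adjusted p of the chi-square test across all genes 1.53e-05), and this call was lost without clone 1, where the ratio was 1.08. Keap1, on the minus strand of chromosome 9 (21229730 to 21239361), had 862, 850 and 966 counts, or 34.7, 37.7 and 38.2 CPM. The difference did not pass the chi-square test (adjusted p 0.123), although it passed with total counts in place of TMM scaling (adjusted p 0.0245). The antisense gene Gm16754 overlaps 10.9% of the Keap1 exon length and shares 7.82% of its 86-nt stretches, so some reads counted for Keap1 may belong to it.

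Per kb of transcript, the factor was above its inhibitor in every clone. Nfe2l2 RNA was at 2.49, 2.74 and 2.50 times the level of Keap1 RNA in clones 1, 2 and 3, and took 72.0% ± 1.07 (SD, n = 3) of their summed level. In raw counts, which favour the longer Keap1 transcript, the shares for clones 1, 2 and 3 were still 63.0% (95% Wilson interval 61.1 to 65.0), 65.2% (63.3 to 67.1) and 63.2% (61.3 to 65.0). These intervals cover counting error only.

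Hmox1 encodes heme oxygenase 1, the inducible enzyme that opens the heme ring and releases iron, carbon monoxide and biliverdin. The gene lies on the plus strand of chromosome 8 (75093621 to 75100589) and had 4890, 3085 and 3195 counts in clones 1, 2 and 3, or 197, 137 and 126 CPM. Clone 1 stood above the other two, which lay close together. The ratio of the highest to the lowest clone was 1.56 (adjusted p of the chi-square test 7.81e-100), larger than that of 80.6% of the genes tested, and it was 1.08 without clone 1. Hmox2, the constitutive heme oxygenase, had 694, 641 and 663 counts, and its ratio of 1.08 did not pass the test (adjusted p of the chi-square test 0.381). Hmox1 was at 7.77 times the level of Hmox2 per kb in clone 1 and at 5.31 times in clones 2 and 3. Of the 86-nt stretches of the Hmox2 transcript, 44.7% also occur in Cdip1, whose exons overlap it on the opposite strand, so the level of Hmox2 is uncertain.

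Nqo1, a quinone reductase whose RNA is widely used as a readout of NRF2 activity, spread the most among the members. It lies on the minus strand of chromosome 8 (107388225 to 107403206) and had 363, 906 and 601 counts in clones 1, 2 and 3, or 14.6, 40.2 and 23.8 CPM. Every clone was apart from the others, and the test called Nqo1 between each pair of clones, as it did Hmox1 and Prdx1. Its ratio of 2.75 (adjusted p of the chi-square test 9.83e-66) was larger than that of 96.7% of the genes tested, and the SD over the clones was 49.4% of the mean, where counting alone would give 4.01%. The ratio was 1.69 without clone 1 and 1.63 without clone 2. The related reductase Nqo2 had 306, 344 and 364 counts, with a ratio of 1.24 (adjusted p of the chi-square test 0.0325). Of its 86-nt stretches 18.1% also occur in Serpinb6a. Per kb, Nqo1 was at 2.93, 6.52 and 4.08 times the level of Nqo2 in clones 1, 2 and 3. The clones had the same order for Nqo1 as for the summed proliferation genes, clone 2 above clone 3 above clone 1, and the reverse order for the arrest genes. Nfe2l2, Gclm, Srxn1 and Prdx1 had this order of Nqo1 too. Macrophage genes were highest in clone 2 as well, and the part of these lists in the spread of Nqo1 was not tested.

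Gclc and Gclm encode the catalytic and the modifier subunit of glutamate-cysteine ligase, which carries out the first step of glutathione synthesis. Gclc (chromosome 9, 77754535 to 77794485, plus strand) had 862, 790 and 909 counts in clones 1, 2 and 3, or 34.7, 35.0 and 36.0 CPM. These levels lay within 1.04 times of each other (adjusted p of the chi-square test 0.767), and their SD was 1.90% of the mean, below the 3.43% that counting alone would give. Gclm (chromosome 3, 122245557 to 122270732, plus strand) had 452, 552 and 503 counts, or 18.2, 24.5 and 19.9 CPM. It was highest in clone 2, with a ratio of 1.35 (adjusted p of the chi-square test 2.01e-05), and this call was lost without clone 2 (adjusted p of the chi-square test 0.251). Per kb, Gclc RNA was at 3.11, 2.34 and 2.95 times the level of Gclm RNA, so that the 2 subunits were closest in clone 2. The Gclc share of their summed level was 73.5% ± 3.02 (SD, n = 3). Exons of other genes overlap 3.88% of the Gclm exon length on its own strand and 4.71% on the other strand.

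Txnrd1, Prdx1 and Srxn1 belong to the thioredoxin branch. Thioredoxin reductase 1, a selenoenzyme of the cytosol, passes electrons from NADPH to thioredoxin, which in turn reduces peroxiredoxins such as PRDX1, and sulfiredoxin (SRXN1) repairs peroxiredoxins whose cysteine has been overoxidised. Txnrd1 (chromosome 10, 82833951 to 82897712, plus strand) had 6336, 5823 and 6350 counts, or 255, 258 and 251 CPM. No difference between libraries was detected (adjusted p of the chi-square test 0.401). Its SD was 1.34% of the mean, with 1.27% due to counting, and 1.41% of all genes tested had a smaller ratio than its 1.03. The mitochondrial reductase gene Txnrd2 was much lower, at 317, 342 and 365 counts, and Txnrd1 took 93.5% ± 0.519 of their summed level per kb (SD, n = 3).

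Prdx1 (chromosome 4, 116685544 to 116700822, plus strand) was the highest member, with 9102, 9613 and 9711 counts, or 366, 426 and 384 CPM. Clone 2 was highest by a ratio of 1.16 over clone 1 (adjusted p of the chi-square test 2.62e-24). Of its 86-nt stretches, 21.2% also occur in 3 other annotated genes, Gm21399, Gm7204 and Gm15974, within 2 mismatches, so its level is less certain than those of the other members. Srxn1 (chromosome 2, 152105516 to 152111376, plus strand) had 1046, 1144 and 1166 counts, or 42.1, 50.7 and 46.2 CPM. It had the same order of clones as Prdx1, with a ratio of 1.21 (adjusted p of the chi-square test 1.89e-04), which did not pass without clone 1 or without clone 2 (adjusted p 0.0683 and 0.0593). The peroxiredoxin and its repair enzyme kept close to 1 proportion, with Prdx1 at 10.67, 10.30 and 10.21 times the level of Srxn1 per kb in clones 1, 2 and 3.

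Sod2 encodes the manganese superoxide dismutase of the mitochondrial matrix, which NF-kB controls as well. It lies on the plus strand of chromosome 17 (13006846 to 13040063) and had 730, 712 and 798 counts, or 29.4, 31.6 and 31.6 CPM. No difference between the libraries was detected (ratio 1.08, adjusted p of the chi-square test 0.340). Sod1, the copper and zinc enzyme of the cytosol, had 3447, 3650 and 3940 counts. In raw counts Sod2 took 17.5% (95% Wilson interval 16.4 to 18.7), 16.3% (15.3 to 17.4) and 16.8% (15.8 to 17.9) of their sum. Per kb the share was 2.17% ± 0.0876 (SD, n = 3), because the Sod2 transcript used has 5861 nt and that of Sod1 641 nt, and it was 7.46% per kb of merged exons. Sod2 was below Sod1 under each of these. Of the 86-nt stretches of Sod1, 57.2% also occur in Gm8566 or Gm8238.

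**Figure D3:**
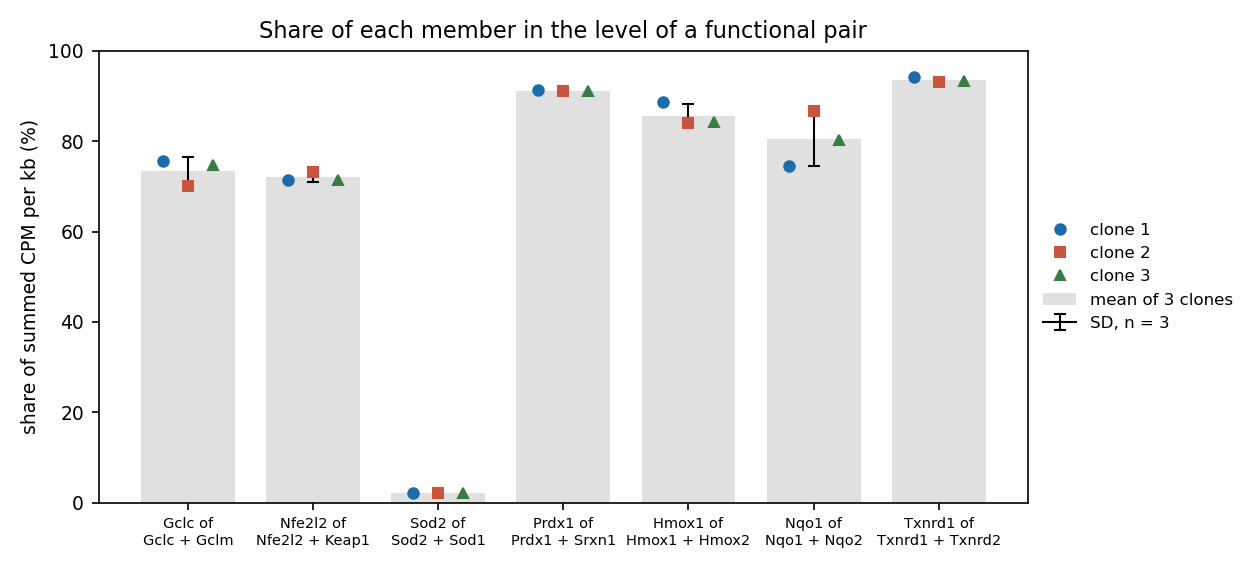
Share of each member in the summed CPM per kb of a functional pair, in percent, for clones 1, 2 and 3 (points) with the mean (bar) and SD (error bar, n = 3). The Nqo1 share moves most, from 74.6% in clone 1 to 86.7% in clone 2, and the Sod2 share is lowest at 2.17%.

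The rest of the pathway was read from 89 further genes in 11 groups. Of these, 80 reached 10 counts in all clones and were tested, and 56 of the 80 (70.0%) differed between libraries, 10 of them (12.5%) by at least 1.5 times. The shares of all genes tested are again 62.5% and 18.6%, and they apply to the counts of each group below as well. The median ratio was 1.23 for the pathway genes and 1.24 for all genes. Of the 80, 35 differed without clone 1 and 37 without clone 2, beside 31.7% and 45.3% of all genes tested. The genes below 10 counts in at least 1 clone were Nfe2l3, Gpx2, Gsta1, Gsta2, Gsta3, Gstt2, Mgst2, Akr1b3 and Abcc2. Gpx2, Gsta1 and Gsta2 had 0 counts in all clones, and at these depths 0 counts still allow 0.119 to 0.133 CPM (3 counts). Of the 86-nt stretches of Akr1b3, which had 3, 0 and 0 counts, 97.5% also occur in other genes, as do 99.9% for Gsta1 and 88.0% for Gsta2, so their counts cannot show their level.

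**Figure D4:**
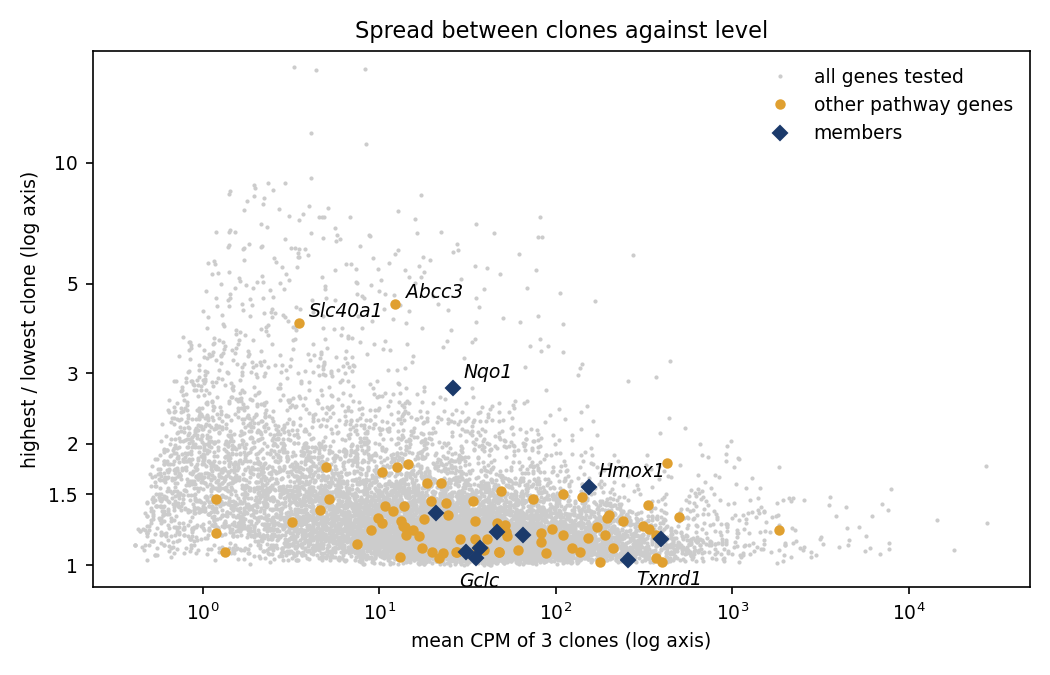
Ratio of the highest to the lowest clone (log axis) against mean CPM (log axis) for the 12218 genes tested (grey), the 80 other pathway genes (orange) and the 10 members (dark diamonds). Most members lie below the median ratio of all genes tested (1.24), with Txnrd1 (1.03) and Gclc (1.04) at the lower edge of the cloud. Nqo1 (2.75), Slc40a1 (3.99) and Abcc3 (4.44) are among the sparser points above its dense part.

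Among other regulators, 7 of 10 tested genes differed. Nfe2l1, which encodes the related factor NRF1, was the highest at 496 ± 72.0 CPM, with 14320, 9862 and 11987 counts in clones 1, 2 and 3. Sqstm1, which encodes the autophagy receptor p62 that binds KEAP1, had 14463, 7353 and 9426 counts, or 582, 326 and 373 CPM. Clone 1 was highest for it, as for Hmox1, and its ratio was 1.79. Exons of Mrnip on the opposite strand overlap 17.3% of the Sqstm1 exon length. Mafk, a small MAF partner of NRF2 named here after its values were seen, was also highest in clone 1. It had 1520, 1041 and 1009 counts and a ratio of 1.53. The other small MAF genes, Maff and Mafg, were highest in clone 2 instead. Their ratios were 1.16 and 1.07, and Mafg did not pass the test (adjusted p of the chi-square test 0.508).

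In the group of glutathione synthesis and cystine uptake 6 of 8 genes differed. Slc3a2, the heavy chain shared by several amino acid transporters, was the highest at 371 ± 8.50 CPM, and Chac1, which degrades glutathione, was the most uneven at 689, 390 and 547 counts. All 5 tested glutathione peroxidase genes differed, none by 1.5 times, beside 62.5% and 18.6% of all genes tested. By mean CPM Gpx8, of the endoplasmic reticulum, led them at 189 ± 18.0 CPM. In clone 1 Gpx4 was above it, at 191 against 182 CPM. Of the 86-nt stretches of Gpx4, 71.5% also occur in other genes, so the place of Gpx4 is uncertain. Gpx3, a secreted enzyme, had the largest ratio at 1.44. Of the glutathione transferases, 6 of 11 tested genes differed and all 6 were highest in clone 1, among them Gsto1 at 331 ± 57.0 CPM (ratio 1.41) and Gstm2 with 560, 317 and 495 counts (ratio 1.60). Of all genes that differed, 38.0% were highest in clone 1. Of the 86-nt stretches of Gstm2, 7.46% also occur in other genes.

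Among thioredoxin and glutaredoxin genes 5 of 9 differed, with Txn1, the cytosolic thioredoxin, at 167, 223 and 212 CPM and Glrx, a glutaredoxin, at 9.02, 15.7 and 12.7 CPM. Both were lowest in clone 1. Peroxiredoxins and sestrins had 5 of 8 genes that differed, led by Prdx2 at 211 ± 11.1 CPM (22.9% of its 86-nt stretches occur in other genes), and Prdx4, of the secretory pathway, had 2787, 3736 and 3666 counts (ratio 1.48). Superoxide dismutases and catalase had 3 of 4, and the secreted dismutase Sod3 was highest in clone 1 with 488, 298 and 278 counts (ratio 1.78).

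All 6 genes of NADPH supply differed, none by 1.5 times before rounding, beside 62.5% and 18.6% of all genes tested. Of these 6, 5 were lowest in clone 1, beside 43.3% of all genes that differed. Tkt, the transketolase gene, had 332, 388 and 394 CPM, and Taldo1, the transaldolase gene, 90.1, 135 and 104 CPM. The genes of this group summed to 812 CPM in clone 1, 971 in clone 2 and 923 in clone 3, in the order that the summed proliferation genes had as well, and the part of proliferation in this was not tested. Of the quinone and carbonyl reductases 5 of 8 differed, with Akr1a1 at 398 ± 4.93 CPM and without a detected difference (adjusted p of the chi-square test 0.290), and Cbr3 at 110, 150 and 96 counts (ratio 1.75).

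In the heme and iron group 6 of 8 genes differed. Ftl1, the ferritin light chain gene, was the highest of all pathway genes at 1839 ± 181 CPM and was highest in clone 1, but all of its 86-nt stretches also occur in other genes within 2 mismatches. Slc40a1, the iron exporter ferroportin, which iron-recycling macrophages are known to express, had 42, 152 and 52 counts and a ratio of 3.99 (adjusted p of the chi-square test 1.89e-23). Among efflux pumps 2 of 3 tested genes differed, with Abcc1 at 337 ± 35.4 CPM and Abcc3 at 154, 567 and 143 counts, a ratio of 4.44 (adjusted p of the chi-square test 5.11e-104). Slc40a1 and Abcc3 were the only pathway genes tested with a ratio above 2, and both were highest in clone 2, where the 11 macrophage genes (ratio 5.45 at the median) were also highest. In clones 1 and 3, Slc40a1 was at 1.69 and 2.06 CPM and Abcc3 at 6.20 and 5.66 CPM. The part of macrophages in these values was not tested.

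**Figure D5:**
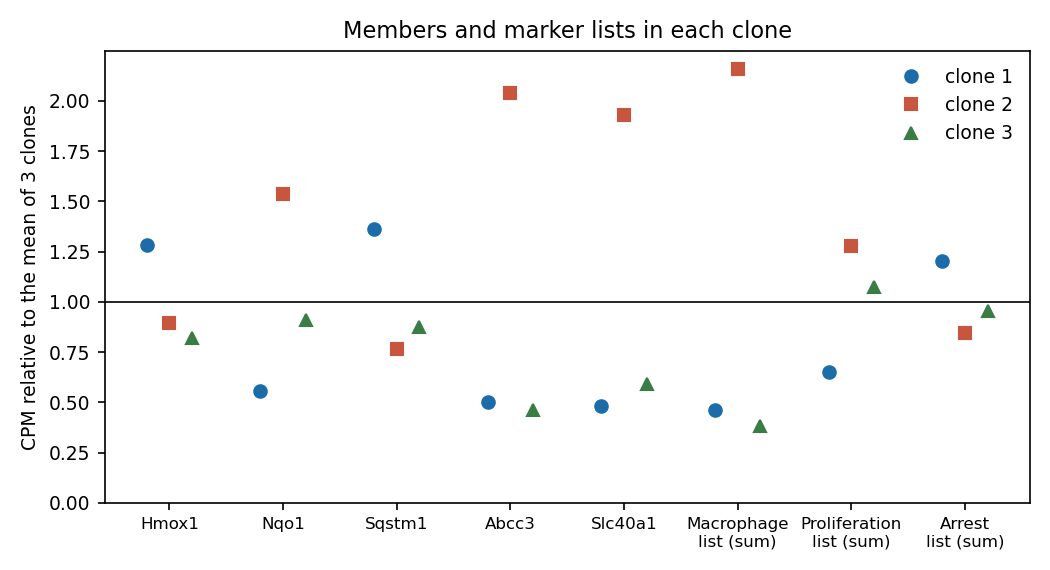
CPM in clones 1, 2 and 3 divided by the mean of the 3 clones, for Hmox1, Nqo1, Sqstm1, Abcc3 and Slc40a1 and for the summed macrophage, proliferation and arrest genes. Hmox1, Sqstm1 and the arrest genes are highest in clone 1, and Abcc3, Slc40a1 and the macrophage genes in clone 2. The lowest clone is 3 for Hmox1 and 2 for the arrest genes. A link between these genes and the lists was not tested.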

How the data were processed

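RNA-seq of 3 WT MEF libraries (clones 1, 2 and 3) was analysed. Per the methods of the paper, the authors aligned 86-nt single-end reads with TopHat 2.0.0, which ran on Bowtie 0.12.7 (Samtools was 0.1.16), keeping reads with up to 2 mismatches and several hits, and assigned them to mm10 genes with HTSeq. The submitters' processing notes name the build mm9 instead. The deposited values are raw counts per gene symbol, without coordinates, and neither the annotation nor the strand setting is given in the sources used here. Whether the libraries came from separate embryos is not stated, so p-values concern only these libraries. They ask whether the counts differ beyond counting noise and do not measure the size of the spread.

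CPM were computed with TMM factors (0.984, 0.998 and 1.019) of edgeR 4.0.16 in R 4.3.3. Genes that reached 10 counts in all clones were tested by Pearson's chi-square (degrees of freedom: 2) and called at an adjusted p-value under 0.05. The test was tested on simulated data. Each pair of clones differed at 31.7% or more of genes, so the libraries were not copies of each other, and each was counted as 1 replicate. This share cannot show whether the clones were independent. Shares have 95% Wilson intervals.

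Positions, lengths and the 86-nt stretches shared between transcripts (within 2 mismatches) came from GENCODE M21 (GRCm38). Of 21782 symbols, 21117 matched it directly and 596 through an older symbol. The members and lists were chosen with earlier results of these data known. Named were all members and, from each pathway group, the gene with the highest mean CPM and the gene called with the largest ratio. Alternatives were scaling by total counts or by the size factors of DESeq2 1.42.0, minimum counts of 1 or 100, counts thinned to the smallest total, a ratio of at least 1.5 in addition, other lengths and leaving out each clone. One erythroid marker is not reported here.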

Additional observations from a re-analysis of the deposited data

How the results depend on the processing

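The 6 members that differed between libraries differed also with DESeq2 size factors, with a minimum of 1 or 100 counts and after thinning, and with total counts Keap1 joined them, at a ratio of 1.14. Leaving out a clone left 4 to 6 members and 35 to 51 of the 80 pathway genes (main 56). The pathway count was 35 without clone 1 and 37 without clone 2. Of all genes tested, 31.7%, 45.3% and 53.0% differed without clones 1, 2 and 3. The Hmox1 ratio ran from 1.08 to 1.55 and the Nqo1 ratio from 1.63 to 2.75 on leaving out a clone. Per kb of merged exons Gclm ranked above Sod2, and in CPM Txnrd1 ranked above Hmox1. Requiring a ratio of at least 1.5 left 2 members and 10 pathway genes, beside 18.6% of all genes tested. Calls lost without clone 1 were Nfe2l2 and Srxn1, and without clone 2 Gclm and Srxn1, with fewer libraries tested. In counts not divided by length the shares were 62.9% for Gclc, 63.8% for Nfe2l2, 16.9% for Sod2, 89.4% for Prdx1, 63.0% for Nqo1 and 94.8% for Txnrd1, and per kb of merged exons 68.5% for Nfe2l2, 7.46% for Sod2, 88.7% for Prdx1 and 91.8% for Txnrd1. Each stayed on the same side of one-to-one with its partner. Leaving out a clone moved no share and no member's mean CPM by more than its SD. With 3 libraries of 1 condition, no spread between conditions or within a clone could be measured.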
